A study of Mus musculus with 6 samples.

Results

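Primordial germ cells are the founders of eggs and sperm, and in the early embryo they are recognised by a small set of genes, several of which are shared with pluripotent cells. Expression of 10 such genes was examined in RNA-seq of mouse tailbud: the pluripotency factors Pou5f1 and Nanog, the specification factors Prdm1, Prdm14 and Tfap2c, the maternal-effect gene Dppa3, the RNA-binding regulators Nanos3 and Dnd1, and the surface proteins Kit and Ifitm3. Members were taken by symbol from a list of named genes, and all 10 were found among the 35591 genes and transcripts of the expression table. Tailbud containing presomitic mesoderm was dissected from embryos with 8 somites on the FVB/NJ background, 3 of them Smchd1 +/+ (WT) and 3 homozygous for MommeD43. MommeD43 is a missense allele of Smchd1, a chromatin protein required for silencing of the inactive X chromosome, and arose in a chemical mutagenesis screen. Replicate 1 of each genotype was male, and replicates 2 and 3 were female. Each library was made from polyadenylated RNA of 1 embryo. The labels give the 2 males a common mother and the 4 females a different mother each. The source field of the labels names neural stem cells, whereas the titles and the tissue field name tailbud, and the latter was followed.

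In the mouse, BMP signals from extraembryonic tissue instruct a few epiblast cells to become germ cells through Prdm1, Prdm14 and Tfap2c. The founders gather at the base of the allantois, and as somites form they are taken up by the hindgut, which lies next to the tailbud. Most of these genes are used by other cells too. Pou5f1 is retained in posterior epiblast while the body axis forms, Prdm1 is used by endoderm and other embryonic tissues, Kit by blood and other progenitors, and Ifitm3 by many cell types. In a piece of whole tissue, fewer cells of a type and less RNA per cell cannot be told apart.

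Promoter sequences of 3 members are given to show motifs known from their regulation: Nanog and Pou5f1, the pluripotency factors with the lower and the higher level, and Ifitm3, the most abundant member. Each window runs from 250 bases before the RefSeq gene start to 50 bases after it in GRCm38.p6, 5′ to 3′ on the strand of the gene. Nanog lies at chr6:122707239-122707538 on the plus strand, Pou5f1 at chr17:35505782-35506081 on the plus strand and Ifitm3 at chr7:141010695-141010994 on the minus strand. Capitals mark an octamer (TTTGCAT) and a SOX motif (ACAATG) in Nanog, a GC box (GGGCGG) and a nuclear receptor half-site (AGGTCA) in Pou5f1, and interferon response motifs (GAAANNGAA) in Ifitm3.
Nanog: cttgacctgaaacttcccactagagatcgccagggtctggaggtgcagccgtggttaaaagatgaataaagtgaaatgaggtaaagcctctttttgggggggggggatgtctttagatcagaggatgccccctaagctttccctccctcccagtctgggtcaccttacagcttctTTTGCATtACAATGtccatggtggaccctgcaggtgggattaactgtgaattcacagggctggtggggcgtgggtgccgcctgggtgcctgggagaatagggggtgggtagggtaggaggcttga
Pou5f1: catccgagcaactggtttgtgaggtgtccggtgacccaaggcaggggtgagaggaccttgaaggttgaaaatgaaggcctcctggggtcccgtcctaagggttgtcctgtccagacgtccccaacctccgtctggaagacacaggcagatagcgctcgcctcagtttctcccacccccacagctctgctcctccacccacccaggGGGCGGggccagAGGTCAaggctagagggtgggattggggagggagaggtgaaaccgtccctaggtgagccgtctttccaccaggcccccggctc
Ifitm3: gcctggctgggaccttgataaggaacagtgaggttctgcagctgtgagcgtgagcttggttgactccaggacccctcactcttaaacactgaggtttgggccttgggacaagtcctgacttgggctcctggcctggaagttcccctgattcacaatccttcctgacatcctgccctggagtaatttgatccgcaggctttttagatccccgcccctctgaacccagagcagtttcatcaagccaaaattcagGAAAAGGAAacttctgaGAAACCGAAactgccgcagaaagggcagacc

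In the Nanog window the SOX motif follows the octamer after a single base, an arrangement bound by the OCT4 protein (the product of Pou5f1) and SOX2 in pluripotent cells. With the start base counted as 0, the octamer begins at position -75 and the SOX motif at -67. In the Pou5f1 window the GC box begins at position -45 and the half-site at -33. In the Ifitm3 window 2 interferon response motifs lie after the start, at positions 2 and 19. Some motifs occurred in more than 1 of these windows and are not in capitals there: an interferon response motif in Pou5f1 at -184, a GC box on the other strand in Ifitm3 at -42 and a half-site on the other strand in Nanog at -248. The windows also differ in CpG content, with 11 CpG sites for Pou5f1, 5 for Ifitm3 and 4 for Nanog. Among 32851 RefSeq windows of the same length, searched on both strands, 4.63% held the octamer, 12.6% the SOX motif, 35.7% the GC box, 16.3% the half-site and 8.56% the interferon response motif. A window was matched for 6 of the 10 members (the others matched were Prdm1, Nanos3 and Kit). Dppa3, Prdm14, Tfap2c and Dnd1 were not matched.

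Values are RPKM, reads of a gene scaled by the length of its exons and by the size of the library, so levels can be compared between genes as well as between libraries. Library totals were between 10957916 reads (MommeD43 replicate 1) and 47298348 reads (MommeD43 replicate 2), a ratio of 4.32, and intervals on single libraries are exact 95% intervals for counting error only. Smchd1 itself averaged 8.07 ± 0.672 RPKM in WT and 7.58 ± 0.40 RPKM in MommeD43 (SD, n = 3 each). A missense allele need not change the level of its transcript, so this does not check the genotype labels. The tailbud markers T, Tbx6 and Msgn1 had at least 76.2 RPKM for Msgn1, 117 RPKM for T and 32.2 RPKM for Tbx6 in every library, which matches the labelled tissue.

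The 10 genes covered a wide range of levels. Ifitm3, an interferon-inducible membrane protein that marks nascent germ cells, was the most abundant, with a mean of 26.6 ± 3.52 RPKM over the 6 libraries (SD). Pou5f1 followed with 13.2 ± 7.51 RPKM, and then Kit, the receptor for the survival factor KIT ligand, with 8.70 ± 0.636 RPKM. Dppa3, which protects methylation marks in the egg and early embryo and is among the most specific early germ cell markers, had 4.67 ± 1.34 RPKM. Prdm1, a transcriptional repressor of the somatic programme, and Tfap2c, an AP-2 transcription factor, were close to each other at 2.67 ± 0.385 and 2.58 ± 0.597 RPKM. Dnd1, an RNA-binding protein that protects transcripts from miRNAs, had 1.67 ± 0.368 RPKM, and Prdm14, a regulator of pluripotency and of epigenetic resetting, had 1.11 ± 0.34 RPKM. Nanog, a homeobox pluripotency factor, and Nanos3, which prevents germ cell death, were lowest, with 0.882 ± 0.274 RPKM and a mean of 0.304 RPKM. The median of the 13617 autosomal genes tested was 5.30 RPKM, so that only Ifitm3, Pou5f1 and Kit lay above it.

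In this order, the ranges over 6 libraries were separate for 3 neighbouring pairs, namely Kit above Dppa3, Dppa3 above Prdm1 and Tfap2c above Dnd1. The other neighbours overlapped. Ifitm3 was nevertheless higher than Pou5f1 within each of the 6 libraries, as were Dnd1 than Prdm14 and Nanog than Nanos3. Pou5f1 was higher than Kit in 4 of 6 libraries, Prdm1 higher than Tfap2c in 4 of 6 and Prdm14 higher than Nanog in 4 of 6, so the order within these pairs was not settled by these libraries.

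**Figure D1:**
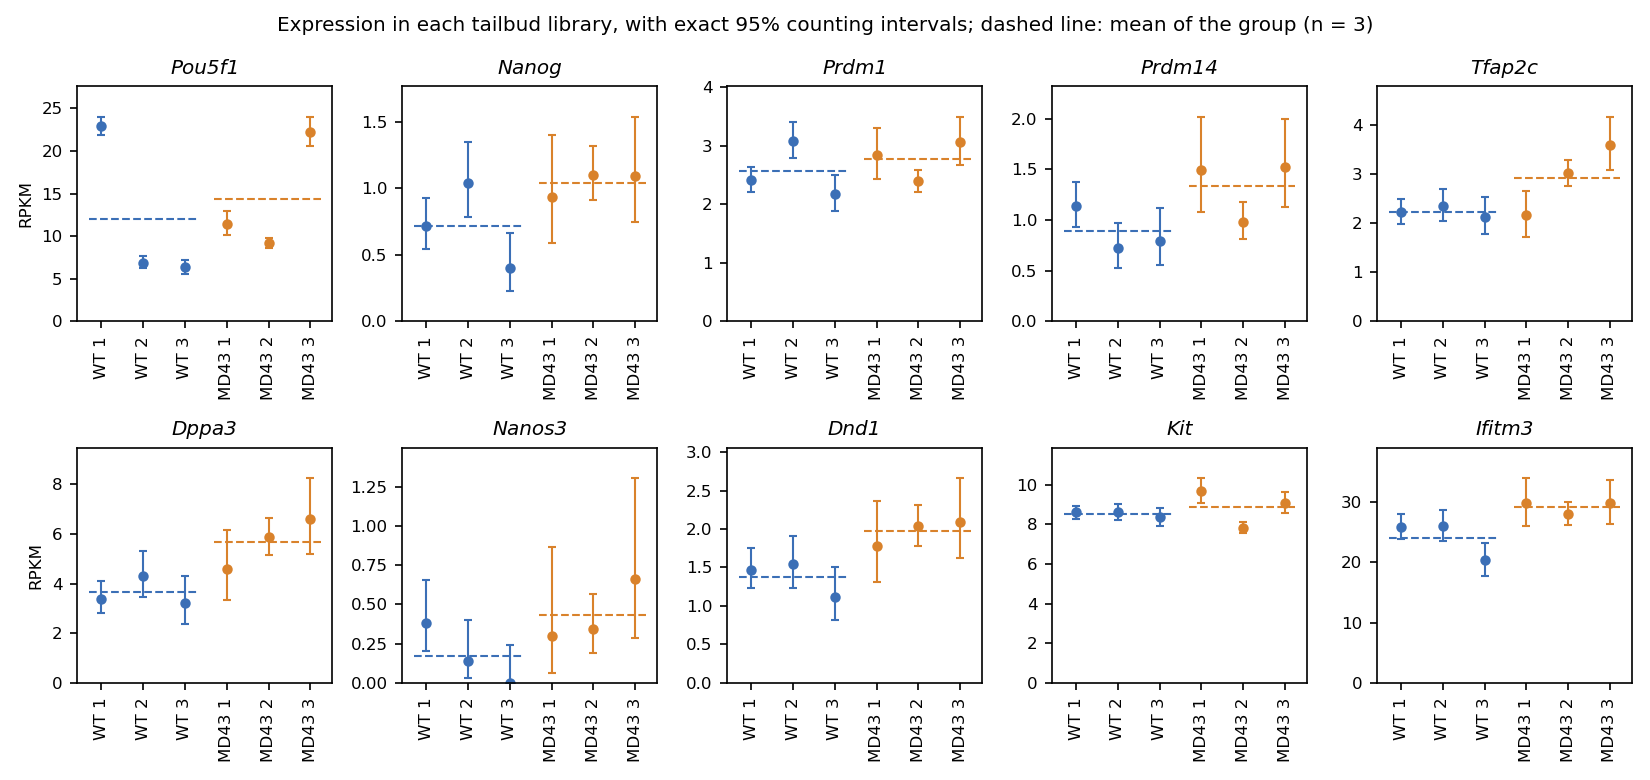
Expression of the 10 genes in each tailbud library, in RPKM on linear axes that start at 0, with WT in blue and MommeD43 (MD43) in orange, exact 95% counting intervals as bars and the mean of each genotype (n = 3) as a dashed line. Points of the genotypes do not overlap for Dppa3, Dnd1 and Ifitm3, whereas Pou5f1 was highest in WT replicate 1 (22.9 RPKM) and MommeD43 replicate 3 (22.3 RPKM).

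Genotypes were compared with limma on the log2 RPKM scale over all 13617 autosomal genes that passed a filter on low values. Of the 10 genes, 9 passed and Nanos3 did not. No autosomal gene had an adjusted p under 0.05 (0%, limma with Benjamini-Hochberg adjustment), and 0 of the 9 genes did. The adjusted p was 0.999 for each of the 9. An unadjusted p under 0.05 was found for 327 genes (2.4% of those tested), 194 of them higher in MommeD43 (1.42%). On the recovered reads, voom also called 0 genes, with 425 at an unadjusted p under 0.05. All values below are therefore differences that did not pass the test, and they are given with their intervals.

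The 9 genes lay to one side. Each had a higher mean log2 RPKM in MommeD43 than in WT, compared with 51.0% of all genes tested. Their median log2 fold change was 0.41, beside 0.00 over all genes. A log2 fold change above 0.5 was reached by Nanog, Dppa3, Prdm14 and Dnd1, 4 of 9, and by 2.56% of all genes. An unadjusted p under 0.05 was reached by Dppa3, Dnd1, Ifitm3 and Prdm14, 4 of 9 in the direction that held 1.42% of all genes. It was reached by 3 of 9 with TMM or median-ratio scaling, where Prdm14 fell out. With voom it was also 3 of 9, but these were Dppa3, Dnd1 and Tfap2c. In Dppa3, Dnd1 and Ifitm3, 3 of 9, every MommeD43 library was above every WT library, a pattern shown by 3.53% of all genes (7.08% in either direction). The genes were not drawn at random from the genome and were chosen with earlier results of these data known, so these shares are descriptions.

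**Figure D2:**
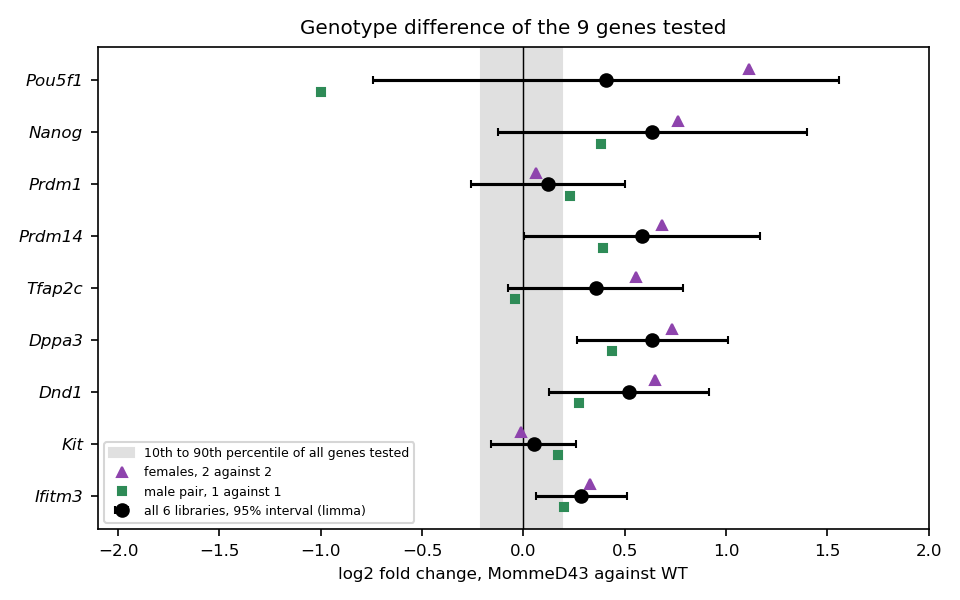
Log2 fold change of MommeD43 against WT for the 9 genes tested, as the limma estimate from all 6 libraries with its 95% interval (black), in the females alone (triangles, 2 against 2) and in the male pair (squares, 1 against 1). The grey band spans the 10th to the 90th percentile of all genes tested (-0.21 to 0.19). Estimates of 7 genes lie to the right of the band and those of Prdm1 and Kit lie inside it. Pou5f1, Tfap2c and Kit take opposite signs in the sexes, by the widest margin for Pou5f1.

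Dppa3 had the smallest unadjusted p of the 9 genes. It measured 3.40, 4.32 and 3.24 RPKM in WT replicates 1 to 3 (111, 91 and 48 reads) and 4.60, 5.88 and 6.60 RPKM in MommeD43 replicates 1 to 3 (45, 248 and 77 reads). The lowest MommeD43 library was thus just above the highest WT library, and their counting intervals overlapped (3.36 to 6.16 RPKM against 3.48 to 5.30 RPKM). Dppa3 averaged 3.65 ± 0.583 RPKM in WT and 5.69 ± 1.01 RPKM in MommeD43 (SD over 3 embryos each). This gave a log2 fold change of 0.64 ± 0.16 (SE), that is 1.55-fold with a 95% interval of 1.20 to 2.01, and the unadjusted p of limma was 0.00428 (adjusted p = 0.999). Leaving out any 1 library kept the log2 fold change between 0.52 and 0.78. Dppa3 lies at chr6:122626410-122630272 on the plus strand and has 5 merged exons. It sits 77.2 kb before Nanog in the same orientation, in a cluster of genes known to be active in pluripotent cells.

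Its neighbour Nanog was less abundant. WT replicates measured 0.719, 1.04 and 0.403 RPKM (59, 55 and 15 reads) and MommeD43 replicates 0.936, 1.10 and 1.09 RPKM (23, 117 and 32 reads). WT replicate 3 stood below the rest, while WT replicate 2 lay among the MommeD43 libraries, so the groups overlapped. The log2 fold change of 0.64 ± 0.33 had a 95% interval of -0.13 to 1.40, with an adjusted p of 0.999 (limma). Leaving out WT replicate 3 lowered the estimate to 0.27, and leaving out WT replicate 2 took it to 0.95. Nanog and Dppa3 thus had the same estimate to 2 decimals with different errors, as the WT replicates of Nanog covered a 2.58-fold range and those of Dppa3 a 1.33-fold range.

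Pou5f1 had the widest range of the 9 genes tested, 3.60-fold. It measured 22.9, 6.91 and 6.37 RPKM in WT (1889, 367 and 238 reads) and 11.5, 9.24 and 22.3 RPKM in MommeD43 (283, 982 and 655 reads). One library of each genotype was high, WT replicate 1 and MommeD43 replicate 3, and the other 4 lay between 6.37 and 11.5 RPKM. The counting intervals of the 2 high libraries (21.9 to 24.0 and 20.6 to 24.0 RPKM) were far above those of the other 4 libraries, the highest of which reached 12.9 RPKM. The log2 fold change of 0.41 ± 0.50 had a 95% interval of -0.74 to 1.56 (adjusted p = 0.999, limma), and it moved from 1.01 without WT replicate 1 to 0.04 without MommeD43 replicate 3. It was 0.05 with voom. Exons of Pou5f1 (chr17:35506018-35510772, plus strand, 6 merged exons) share 14.1% of their length with Gm19553 on the other strand. The library kit marks strand but the counting is not stated to use it, so reads in that share could belong to either gene.

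Genes of the progenitor zone were compared with Pou5f1 because it is kept on in posterior epiblast. T (Brachyury), a driver of mesoderm formation, measured 188, 117 and 118 RPKM in WT and 121, 141 and 141 RPKM in MommeD43. Wnt3a, which maintains tailbud progenitors, measured 53.1, 26.6 and 26.0 RPKM in WT and 26.6, 30.4 and 37.6 RPKM in MommeD43. Fgf4, a target of OCT4 and SOX2 in pluripotent cells, measured 7.12, 2.90 and 2.05 RPKM in WT and 3.11, 2.95 and 4.11 RPKM in MommeD43. Like Pou5f1, Wnt3a and Fgf4 were highest in WT replicate 1 and next highest in MommeD43 replicate 3, and T was highest in WT replicate 1. These 3 genes were picked after their values had been seen, and other tailbud markers differed. Hes7 was highest in MommeD43 replicate 3 (35.4 RPKM), Dll1 in MommeD43 replicate 2 (35.7 RPKM) and Cdx4 in WT replicate 3 (276 RPKM). Fgf8, Tbx6 and Msgn1 were highest in WT replicate 1 but next highest in MommeD43 replicate 2. Nkx1-2 and Cdx2 were highest in WT replicate 1 and next highest in MommeD43 replicate 3. The summed tailbud markers were also highest in WT replicate 1 (1021 RPKM) and MommeD43 replicate 3 (958 RPKM), against 739 to 893 RPKM in the other libraries, and the part of this in the spread of Pou5f1 was not tested. Over the 6 libraries, the autosomal genes closest to Pou5f1 in centred log2 RPKM were 3110004A20Rik and Arhgap9, with root mean square differences of 0.13 and 0.21. Of the other 8 genes tested, the nearest to Pou5f1 was Prdm14, 0.50 away by this measure, which also counts differences in the size of the spread. Like Pou5f1, Prdm14 had MommeD43 replicate 3, MommeD43 replicate 1 and WT replicate 1 as its highest libraries, in another order.

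The 3 specification factors differed among themselves. Prdm14 measured 1.14, 0.726 and 0.798 RPKM in WT (107, 44 and 34 reads) and 1.49, 0.981 and 1.52 RPKM in MommeD43 (42, 119 and 51 reads). MommeD43 replicates 1 and 3 were above all WT libraries, whereas MommeD43 replicate 2, the most deeply sequenced library, was below WT replicate 1. For Prdm14 the log2 fold change was 0.58 ± 0.25 with a 95% interval of 0.002 to 1.17 (unadjusted p = 0.0493, adjusted p = 0.999, limma). The unadjusted p was 0.0504 with TMM scaling, 0.0503 with median-ratio scaling and 0.252 with voom, which put the log2 fold change at 0.34. It was 0.124 to 0.149 without WT replicate 2, WT replicate 3, MommeD43 replicate 1 or MommeD43 replicate 3. Tfap2c was even in WT, at 2.22, 2.36 and 2.13 RPKM (299, 205 and 130 reads), and uneven in MommeD43, at 2.16, 3.02 and 3.59 RPKM (87, 525 and 173 reads). The 2 female MommeD43 libraries were thus above all WT libraries, and the male one was within the WT range. Its log2 fold change of 0.36 ± 0.19 had a 95% interval of -0.07 to 0.79 (adjusted p = 0.999, limma). It was 0.56 without MommeD43 replicate 1 and 0.19 without MommeD43 replicate 3. With voom it was 0.40, with an unadjusted p of 0.0363.

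Prdm1, the first of these factors to act in germ cell founders, measured 2.42, 3.09 and 2.18 RPKM in WT (495, 407 and 202 reads) and 2.85, 2.40 and 3.07 RPKM in MommeD43 (174, 632 and 224 reads). The highest library was WT replicate 2 and the groups overlapped throughout. Its log2 fold change of 0.12 ± 0.17 had an interval at 95% from -0.26 to 0.50, a fold of 0.835 to 1.41 (adjusted p = 0.999, limma). With 1 library left out it lay between 0.01 (WT replicate 3) and 0.26 (WT replicate 2), and voom gave 0.03. Prdm1 lies at chr10:44437177-44528501 (minus strand, 10 merged exons), Prdm14 at chr1:13113457-13127163 (minus strand, 8 merged exons) and Tfap2c at chr2:172549593-172558622 (plus strand, 9 merged exons).

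The RNA-binding regulators were low. Dnd1 (chr18:36763671-36766214, minus strand, 2 merged exons) measured 1.47, 1.54 and 1.12 RPKM in WT (130, 88 and 45 reads) and 1.78, 2.03 and 2.09 RPKM in MommeD43 (47, 232 and 66 reads). Every MommeD43 library was above every WT library. MommeD43 exceeded WT by 0.52 ± 0.17 on the log2 scale (1.44-fold, 95% interval 1.09 to 1.89), with an unadjusted p of 0.0155 and an adjusted p of 0.999 (limma). It was 0.38 without WT replicate 3, with an unadjusted p of 0.0569. Of its exon length, 5.80% is shared with Wdr55 on the other strand. No other member except Pou5f1 shares exon sequence with another annotated gene.

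Nanos3 (chr8:84173731-84185217, minus strand, 3 merged exons) was near the limit of detection, with 42 reads in all. WT replicates held 13, 3 and 0 reads (0.384, 0.137 and 0 RPKM) and MommeD43 replicates 3, 15 and 8 reads (0.296, 0.343 and 0.662 RPKM). In WT replicate 3, 0 reads allow a level of up to 0.195 RPKM (3 reads). The counting interval of MommeD43 replicate 3, the highest library, ran from 0.286 to 1.30 RPKM. It overlapped that of WT replicate 1 (0.205 to 0.657 RPKM) and lay above that of WT replicate 3. Nanos3 was not part of the main test. Without the filter its log2 fold change was 1.48 ± 0.67 (unadjusted p = 0.0521, adjusted p = 0.995, limma). That value depends on the level set for 0 reads, so the genotype difference of Nanos3 was not settled at this depth.

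The surface proteins were the most precisely measured. Kit (chr5:75574916-75656722, plus strand, 21 merged exons) measured 8.60, 8.63 and 8.37 RPKM in WT (2806, 1817 and 1239 reads) and 9.69, 7.82 and 9.09 RPKM in MommeD43 (946, 3298 and 1060 reads). The WT libraries lay within a 1.03-fold range and between the MommeD43 libraries, of which replicate 1 was the highest and replicate 2 the lowest of all 6. Its log2 fold change of 0.05 ± 0.09 had a 95% interval of -0.16 to 0.26, or 0.896-fold to 1.20-fold (adjusted p = 0.999, limma). The sign turned to -0.02 without MommeD43 replicate 1. Kit has other sources than germ cells in an embryo, and its nearest genes in centred log2 RPKM, Uggt2 and Casc4 (both 0.04 away), were likewise nearly level over the 6 libraries.

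Ifitm3 (chr7:141009586-141010770, minus strand, 2 merged exons) measured 25.9, 26.0 and 20.3 RPKM in WT (643, 417 and 229 reads) and 29.7, 28.0 and 29.8 RPKM in MommeD43 (221, 899 and 264 reads). Every MommeD43 library was above every WT library, and WT replicate 3 lay well below the others. On the log2 scale the difference was 0.29 ± 0.10 (1.22-fold, 95% interval 1.04 to 1.42), with an unadjusted p of 0.0186 and an adjusted p of 0.999 (limma), and it was 0.17 without WT replicate 3. The unadjusted p of Ifitm3 was 0.0729 with voom. With limma it was 0.0521 without MommeD43 replicate 1 and 0.0531 without MommeD43 replicate 3. Of its relatives, 3 were tested, and their groups overlapped. Ifitm1 had a mean of 186 RPKM and a log2 fold change of 0.03, Ifitm2 263 RPKM and 0.05, and Ifitm5 2.43 RPKM and -0.01, while Ifitm10 had 50 reads in all and was not tested, and Ifitm6 and Ifitm7 had no read in any library. Among relatives of the other members, Nanos1 had 0.897 RPKM (0.07 on the log2 scale) against 7 reads in all for Nanos2, Tfap2a had 2.08 RPKM (0.09), Pou5f2 had 1 read, and of 12 further Prdm genes 9 were tested, among them Prdm10, whose groups did not overlap and which was lower in MommeD43 (-0.18).

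Across members, the same libraries tended to be at the ends. WT replicate 3 was the lowest library for 8 of the 10 genes, the exceptions being Prdm14 and Kit, and over all genes tested it was the lowest for 18.3%. MommeD43 replicate 3 was the highest for 6 of 10 (Dppa3, Prdm14, Nanos3, Dnd1, Tfap2c and Ifitm3), and over all genes for 22.4%. Dppa3 and Dnd1 placed all 6 libraries in the same order, from WT replicate 3 through WT replicates 1 and 2 to MommeD43 replicates 1, 2 and 3. The order was taken from Dppa3 in these data. It was shown by 27 of the 13617 genes (0.198%), these 2 included, so the share is only a description. Dppa3 and Dnd1 also were the closest pair of members, with a root mean square difference of 0.14 in centred log2 RPKM. The genes closest to Dppa3 among all tested were Agbl3 (0.07) and Isg20 (0.08). WT replicate 3 and MommeD43 replicate 3, the libraries at the ends, were both female and had 16621319 and 13088211 reads.

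**Figure D3:**
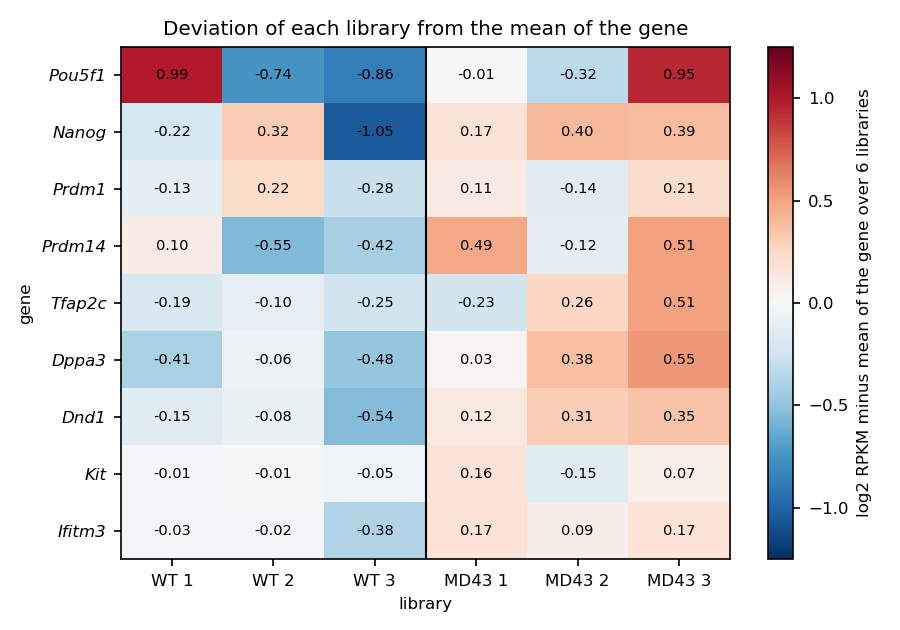
Deviation of each library from the mean of the gene over the 6 libraries, in log2 RPKM, for the 9 genes tested (red above, blue below, a line between the genotypes). WT replicate 3 is below the mean for all 9 genes and MommeD43 replicate 3 above it for all 9, while Pou5f1 has its highest and its lowest library in WT.

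Each genotype held 1 male and 2 females, and the genotype difference was also taken by sex. In the females, 8 of 9 genes had the higher mean in MommeD43 (all but Kit), and in the male pair 7 of 9 (all but Pou5f1 and Tfap2c). Pou5f1 differed most, with a log2 fold change of 1.11 in the females and -0.998 in the male pair. Its interaction of genotype and sex was -2.11 ± 0.61, with an adjusted p of 0.317 (limma). With a single male per genotype, this compares 1 embryo of each genotype in that sex, and the male WT embryo was one of the 2 high libraries. For Dppa3 the values were 0.74 in the females and 0.44 in the males, for Prdm14 0.68 and 0.39, for Dnd1 0.65 and 0.27 and for Ifitm3 0.33 and 0.20, the same direction in both sexes. None of the 9 genes had an interaction with an adjusted p under 0.05, against 37 of 13617 genes tested (0.272%). In the females alone 7 of 9 genes had every MommeD43 library above every WT library, beside 21.8% of all genes in that direction.

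Genes that act before and around these 10 were followed as lists, and in none of the lists did a gene pass the test (0 called, limma). Bmp4, Hes7 and Tie1 had an unadjusted p under 0.05. Of 11 germ cell specification signals, 10 were tested, 3 had a higher mean in MommeD43 and the median log2 fold change was -0.03, beside 0.00 over all genes. Bmp4, the principal inducing signal, measured 27.4 ± 0.952 RPKM in WT and 30.8 ± 2.06 RPKM in MommeD43 (SD, n = 3 each). Its groups did not overlap and its log2 fold change was 0.17 ± 0.06, with an adjusted p of 0.999 (limma). Smad5, a transducer of BMP signals, had -0.09 ± 0.08. Of 10 migration and survival genes, 9 were tested and 9 had a higher mean in MommeD43, but the median was only 0.11. The 2 with the smallest unadjusted p were Pecam1, an adhesion protein also of endothelium (0.39 ± 0.22), and Fut4, which makes the SSEA1 epitope (0.21 ± 0.15), and groups overlapped in both. Dazl, a later germ cell regulator on this list, had at most 0.10 RPKM.

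Genes of the wider pluripotency network did not lie to one side as the members did. Of 22, 15 were tested, 6 had a higher mean in MommeD43, and the median log2 fold change was -0.01. Values ran from -0.36 for Tfcp2l1 to 0.69 for Klf2, and groups overlapped in both. Sox2, the partner of OCT4, measured between 11.8 and 15.4 RPKM in all 6 libraries, with a log2 fold change of -0.01. Esrrb and Utf1 had the smallest unadjusted p values on this list, with log2 fold changes of 0.48 ± 0.26 and 0.44 ± 0.25. Of 10 epiblast genes 6 were tested, with a median of 0.02. Zic5 had 0.28 ± 0.22 and Epha5 -0.27 ± 0.16. Of 11 further genes associated with germ cells all 11 were tested, with a median of -0.02 and with 4 higher in MommeD43. Tet1, a methylcytosine dioxygenase, had the smallest unadjusted p among them (-0.20 ± 0.14).

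Genes that are switched on in germ cells later, in the gonad, were nearly silent. Of 12, only Ddx4, Tdrd1 and Piwil2 passed the filter, with a median of 0.00. The summed level of all 12 was 1.21 to 1.73 RPKM in WT and 1.31 to 1.89 RPKM in MommeD43. Ddx4 measured 0.299, 0.140 and 0.160 RPKM in WT and 0.273, 0.182 and 0 RPKM in MommeD43, and its sign depended on the library without a read. Tdrd1 had a log2 fold change of 0.46 ± 0.36. Rhox9 had no read in any library.

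The amount of neighbouring tissue in each dissected piece was followed with marker lists. Hindgut markers summed to 493 to 570 RPKM in WT and 539 to 611 RPKM in MommeD43, with 7 of 11 higher in MommeD43 and a median log2 fold change of 0.05 (Krt18 0.21 ± 0.12, Epcam 0.12 ± 0.08). Allantois and lateral mesoderm markers summed to 184 to 199 RPKM and 179 to 212 RPKM, with 6 of 9 higher and a median of 0.05 (Bmp4, on this list also, and Hand1 0.10 ± 0.13). MommeD43 replicate 3, the highest library for 6 members, also had the highest hindgut sum (611 RPKM) and the highest allantois sum (212 RPKM). WT replicate 1 had the lowest hindgut sum. In MommeD43 replicate 3 most of the hindgut sum was Krt18 (182 RPKM), Krt8 (181 RPKM) and Cdx2 (179 RPKM), the last also a tailbud marker. There, Gata6 was at its lowest of the 6 libraries (1.88 RPKM), and Foxa2 and Shh were next to lowest. Sox17, Epcam and Trh were next to highest. On the allantois list, Foxf1 and Bmp4 were highest in that library and Tbx20 was lowest (1.53 RPKM). Tailbud markers summed to 778 to 1021 RPKM and 739 to 958 RPKM, with 5 of 9 higher and a median of 0.02 (Hes7 0.47 ± 0.20, Dll1 0.22 ± 0.11). No gene of these lists was without a read, and their part in the differences of the members was not tested.

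Blood and yolk sac markers varied most between embryos. Endothelial markers, relevant for Kit and Pecam1, summed to 47.3 to 68.6 RPKM in WT and 53.4 to 68.5 RPKM in MommeD43, with 8 of 10 higher and a median of 0.33 (Tie1 0.48 ± 0.19, Etv2 -0.29 ± 0.13). Blood markers ran from 9.04 to 486 RPKM in WT and from 22.8 to 220 RPKM in MommeD43, lower in 7 of 7 tested with a median of -0.73 (Hbb-y -1.97 ± 1.53, Klf1 -1.23 ± 0.96). The defining blood factor Gata1 was at 0 in WT replicate 1 and in MommeD43 replicates 1 and 3. Yolk sac markers ran from 161 to 306 RPKM in WT and measured 477, 55.7 and 39.9 RPKM in MommeD43 replicates 1 to 3, lower in 10 of 10 with a median of -1.11 (Apoc2 -1.84 ± 0.98, Amn -1.04 ± 0.62). The 2 female MommeD43 libraries, which were highest for Dppa3, Dnd1, Tfap2c and Nanog, had the lowest yolk sac sums. However, MommeD43 replicate 2 was the lowest library for Kit and the next lowest for Prdm1. The male MommeD43 library had the highest yolk sac sum. It was above every WT library for Dppa3, Dnd1, Ifitm3, Prdm14 and Kit, and within the WT range for Pou5f1, Nanog, Prdm1, Tfap2c and Nanos3. The part of yolk sac or blood content in the differences of the members was not tested.

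**Figure D4:**
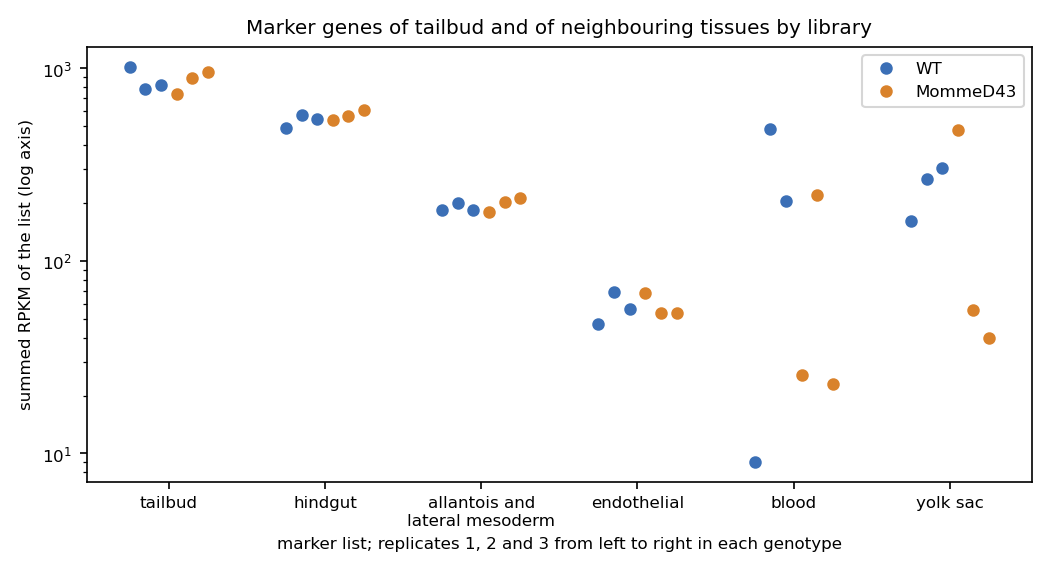
Summed RPKM (log axis) of marker genes of tailbud and neighbouring tissues in each library, WT in blue and MommeD43 in orange, replicates 1 to 3 from left to right within each genotype. Hindgut sums lay between 493 and 611 RPKM and endothelial sums between 47.3 and 68.6 RPKM, whereas blood (9.04 to 486 RPKM) and yolk sac (39.9 to 477 RPKM) varied widely between embryos.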

How the data were processed

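RNA-seq was analysed from 6 tailbud libraries, 3 WT and 3 MommeD43, grouped by genotype labels. The deposited table holds log2 RPKM per gene, which the authors made with SeqMonk after trimming with Trim Galore 0.4.4 and mapping with HISAT2 2.0.5 to GRCm38.p6. How reads with several matches or on either strand were counted is not given in the sources used here. The authors' 2 mean columns were not used. Merged exon lengths of GENCODE M21 (35555 of 35591 identifiers matched) gave back reads, and 98.5% of 106529 values were whole within 0.02 reads. Library totals were 10957916 to 47298348 reads. Counting error was expressed as exact Clopper-Pearson 95% intervals, and the floor of a library was set at 3 reads.

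A gene entered the test if it was autosomal and if, in 3 or more libraries, its CPM was at least that of 10 reads at the median library size (13617 genes). Deposited log2 values were tested without a pseudocount with limma 3.58.1 (R 4.3.3), two-sided, with a mean-variance trend and Benjamini-Hochberg adjustment over these genes. An exact permutation test of 3 against 3 cannot go below 0.1. Separate embryos were the replicates. The code was tested on simulated data.

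The members, gene lists and naming rule were chosen with earlier results of these data known. Named genes were all members, their family relatives, the 2 genes of each list with the smallest unadjusted p, and the 2 genes with profiles nearest to Pou5f1, Dppa3 and Kit. Alternatives were pseudocounts of 0.1 and 1 RPKM, other filters, TMM and median-ratio scaling, voom, a replicate block, a sex term, the females on their own and leaving out each library. Promoter windows are from RefSeq. Other steps used scipy 1.17.1, pandas 2.3.3, matplotlib 3.10.9 and numpy 2.4.6 under Python 3.11.15.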

Additional observations from a re-analysis of the deposited data

How the results depend on the processing

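Under 16 alternatives, no autosomal gene was called by limma in 15, and 10 were called in the females alone, with 1188 at an unadjusted p under 0.05. No member was called under any alternative (smallest adjusted p of a member 0.361 in the females alone and 0.486 or more elsewhere). The number of members with every MommeD43 library above every WT library was 7 in the females alone, beside 21.8% of all genes. It was 3 to 5 with 1 library left out, where fewer libraries make separation easier. It was 5 without WT replicate 1 (13.0% of all genes), MommeD43 replicate 1 (9.44%) or MommeD43 replicate 2 (8.61%), where the share over all 6 libraries was 3.53%. Members at an unadjusted p under 0.05 numbered from 2 (without WT replicate 3 or without MommeD43 replicate 3) to 6 (females alone), beside 4. Over all genes the numbers were 187 without WT replicate 3, 250 without MommeD43 replicate 3 and 1188 in the females alone, beside 327. Genes of the lists called were 4 in the females alone, all yolk sac markers lower in MommeD43 (Cubn, Apob, Ttr and Rbp4), and 0 otherwise. Of the member log2 fold changes, 142 of 144 kept their sign, and Kit turned to -0.011 in the females alone and ranged from -0.017 to 0.137 with 1 library left out. Of those of 23 other named genes, 363 of 365 kept theirs. With 1 library left out, Ddx4 ranged from -1.55 to 0.24 and Hand1 from -0.0021 to 0.26. Pseudocounts of 1 RPKM shrank low genes (Nanog 0.26, Prdm14 0.30). Nanos3 could be fitted only without the filter, where its value depends on the level set for 0 reads. Scaling factors were at most 0.0163 on the log2 scale. The paper counts these embryos as 3 somite-matched pairs, and its text does not say which embryos were partners. The main test was unpaired. Only replicate number 1 stands for a common mother, and the numbers were not taken as pairs. Correlations of deviations were -0.03, 0.17 and -0.17 for numbers 1 to 3, and WT replicates 1 and 3 correlated better with another number. The replicate block, which pairs embryos by number, gave 0 calls with limma, with 307 genes at an unadjusted p under 0.05. It left the same 0 called members and 3 members whose groups did not overlap. The 48 and 45 reads of Dppa3 and the 15 of Nanog in single libraries limit their precision.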
